A study of Danio rerio with 12 samples.

Results

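The genes of the splicing machinery described here are the 70 of 14850 listed genes whose symbols begin with srsf and a digit, sf3a or sf3b, snrp, hnrnp, u2af or prpf. By that naming rule 19 encode hnRNP proteins, 16 SR proteins, 12 snRNP core proteins, 8 SF3a and SF3b subunits, 3 U2AF subunits and 12 PRPF factors. RNA-seq was measured in polyA RNA from pools of whole Ekwill strain zebrafish embryos at 6hpf (gastrulation) and 12hpf (segmentation), with 3 Control and 3 TALE KD libraries at each stage. TALE KD embryos carried a mixture of morpholinos, antisense oligos that block the RNA they pair with, against prep1.1 (listed as pknox1.1), pbx2 and pbx4. These genes encode partner transcription factors of the TALE class. All 4 groups share the strain and the rearing at a common temperature. The methods of the study set control pools apart from injected pools, so that effects of the injection itself and of the knockdown cannot be told apart. A morpholino knockdown is transient and acts in every cell of the embryo, so that whole embryos under a knockdown are compared, not mutant lines.

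In textbook terms, introns are removed by the spliceosome, which is built on each new transcript from small nuclear RNAs bound to proteins (snRNPs). The U1 snRNP pairs with the start of the intron, U2AF marks its end, and the SF3a and SF3b subunits anchor the U2 snRNP on the branch site between them. A larger particle carrying the PRPF factors then joins and forms the catalytic core. SR proteins bind exons and recruit these parts, whereas hnRNP proteins coat the transcript and often hold splice sites back, so that the balance of both groups sets which exons are kept. Eggs are loaded with RNAs for this machinery. The study places maternal control of development before the stages sampled here, and the earlier of them shortly after the embryo's own genome becomes active. How much of the RNA of these genes was maternal at either stage was not tested.

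The libraries held 11884808 to 15031222 estimated counts at 6hpf and 19783332 to 40924971 at 12hpf. At 12hpf replicate 3 stood apart in both groups. The chi-square per degree of freedom between its counts and those of the other Control libraries was 13.5 and 12.96, against 2.68 between replicates 1 and 2, and 18.4 and 24.6 against 3.19 in TALE KD libraries. At 6hpf it lay between 7.26 and 16.5 for every pair within a group. The levels of the targeted transcripts do not measure the knockdown, since morpholinos block translation or processing of an RNA. pbx2 was higher in TALE KD libraries, by 1.67-fold at 6hpf and 2.83-fold at 12hpf, and pbx4 and pknox1.1 were not called at either stage. The stage labels were checked against defining genes. The 8 listed genes of the 6hpf stage, such as nanog and pou5f3, summed to 3493 to 3752 CPM at 6hpf and 311 to 420.4 CPM at 12hpf. The 10 genes of the 12hpf stage, such as myod1 and egr2b, summed to 86.1 to 105 CPM at 6hpf, where myog was at 0, and 370.2 to 544 CPM at 12hpf. In Control embryos 9 of them were called higher at 12hpf than at 6hpf, but 1 was called lower, with a log2 fold change of -3.23. In TALE KD embryos 8 were called higher and 1 lower (-3.25). CPM are counts scaled to a common library size with TMM factors taken over the 12 libraries together, which the 2 separately deposited tables allow because their values had not been normalized. In whole embryos, fewer cells that use a gene and less RNA of it per cell cannot be told apart.

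The splicing genes took a smaller part of the RNA at the later stage. The 70 genes together held 5.57% to 5.71% of all counts in the 6 libraries of 6hpf and 2.89% to 3.06% in the 6 libraries of 12hpf. In Control libraries the summed level of the hnRNP proteins was 37313 ± 405 CPM (SD, n = 3) at 6hpf and 14617 ± 374 CPM at 12hpf, a ratio of 0.392. This was the steepest fall of the 6 summed levels, and it rests on the hnrnpa0 genes, without which the ratio was 0.505, an alternative chosen after seeing the data. The ratio was 0.492 for the SR proteins, 0.505 for the snRNP core proteins and 0.541 for the SF3a and SF3b subunits. It was 0.624 for the U2AF subunits and 0.633 for the PRPF factors. Replicate 1 of Control 6hpf was lowest for the PRPF factors (3389, 4093 and 4423 CPM) and the SF3a and SF3b subunits (3109, 3522 and 3625 CPM). For the snRNP core proteins it was highest (5285, 4765 and 4953 CPM). The order of the closer ratios without that library was not tested. In TALE KD libraries the ratios ran in the same order, from 0.399 for the hnRNP proteins to 0.716 for the PRPF factors, and in no family did a library of 12hpf overlap those of 6hpf. By the median member the order was another, with log2 fold changes in Control embryos of -1.07 for the SR proteins, -0.98 for the SF3a and SF3b subunits, -0.91 for the snRNP core proteins, -0.89 for the PRPF factors, -0.82 for the U2AF subunits and -0.78 for the hnRNP proteins. The summed levels and medians are a description with no test, because the families were chosen as lists.

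**Figure D1:**
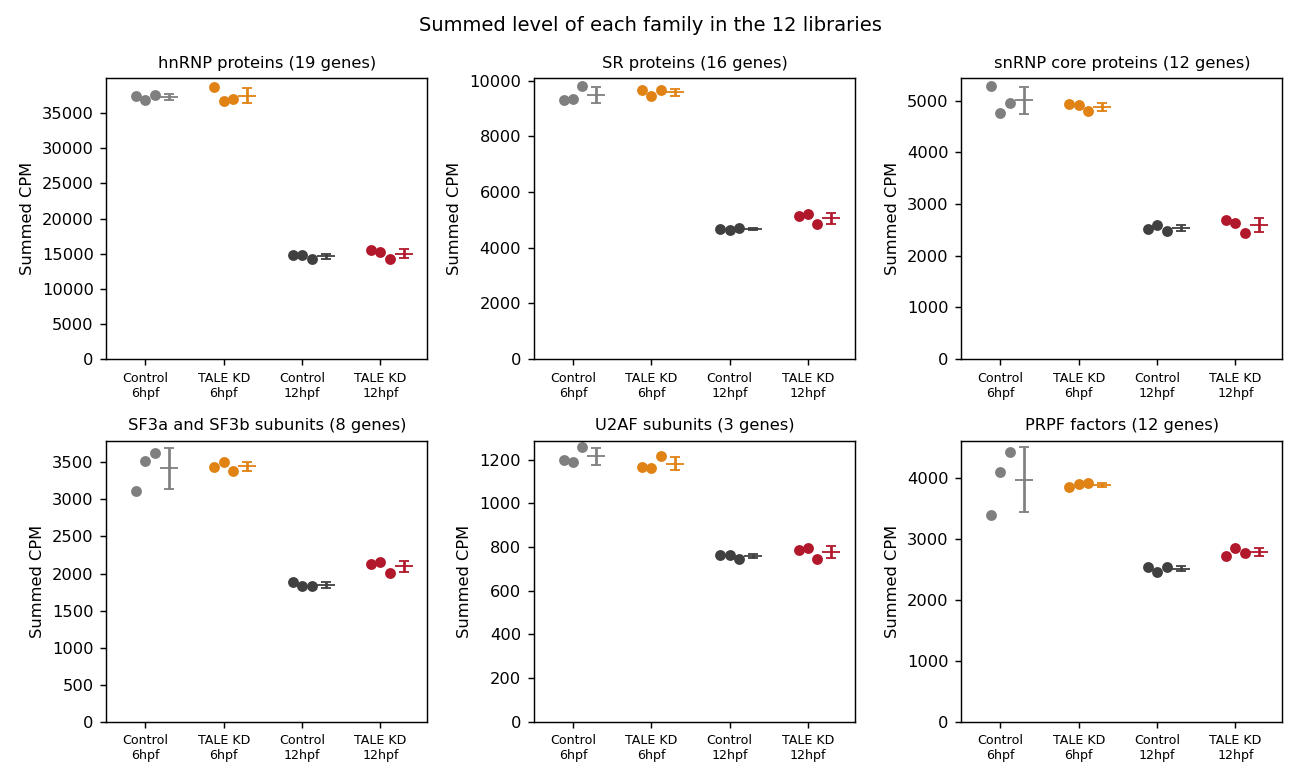
Summed level of each family (CPM, y axis) in the 12 libraries, by group on the x axis, with points for libraries and crosses with bars for the mean and SD of 3 libraries. Every family sits lower at 12hpf than at 6hpf, and the SR proteins, the SF3a and SF3b subunits and the PRPF factors sit slightly higher at 12hpf in TALE KD than in Control embryos.

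Gene by gene, 12hpf was compared with 6hpf within each group to ask which splicing genes followed the fall. A gene was called where edgeR's quasi-likelihood test over all genes gave an adjusted p no higher than 0.01 and the difference was 1.5-fold or more. In Control embryos 52 of the 70 genes were called lower at 12hpf and 1 was called higher, whereas 26.5% of all genes tested were called lower and 32.3% higher. The median log2 fold change (log2 change for short) of the 70 genes was -0.88, against 0.07 over all genes tested. In TALE KD embryos 47 were called lower and 2 higher, where 24.7% of all genes were called lower and 30.6% higher, and the median was -0.83 against 0.09. With library totals in place of TMM the log2 changes of all genes shifted by 0.25 in Control and 0.23 in TALE KD embryos. Under that scaling 39 of the 70 were called lower and 4 called higher in Control embryos, and 37 and 4 in TALE KD embryos. Called or not, 58 of the 70 had a log2 change below 0 in each group. The split of calls over all genes moved from 3675 higher and 3014 lower to 4465 and 2275 in Control embryos, and from 3524 and 2847 to 4289 and 2117 in TALE KD embryos.

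Among the hnRNP genes 14 of 19 were called lower in Control embryos, led by hnrnpa0b and hnrnpa0l, whose human relative binds AU-rich stretches of mRNA. Next came hnrnpub (log2 change -1.51), named after its values were seen, and hnrnpa0a (-1.49). hnrnpa0b was at 6157, 6297 and 6102 CPM in the 3 Control libraries of 6hpf and 779, 744 and 712 CPM in those of 12hpf. hnrnpa0l was at 7363, 6844 and 6533 CPM at 6hpf and 1802, 1745 and 1856 CPM at 12hpf. The stages were far from overlapping, with a log2 change of -3.10 ± 0.06 for hnrnpa0b (SE, edgeR adjusted p = 1.99e-09) and -1.98 ± 0.06 for hnrnpa0l (SE, edgeR adjusted p = 1.31e-08). In TALE KD embryos that of hnrnpa0b was -3.41. Summed, the 3 hnrnpa0 genes at 12hpf stood at 0.207 of their 6hpf level in Control and 0.186 in TALE KD libraries. hnrnpa0b therefore went from 16.6% to 5.10% of the summed hnRNP counts in Control libraries, and hnrnpaba, a gene of the hnRNP A/B group, from 11.3% to 17.6%.

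Some of the hnRNP H genes, whose human relatives bind runs of G, did not follow. hnrnph3 was at 2.54, 3.14 and 2.94 CPM at 6hpf and 10.9, 10.7 and 12.6 CPM at 12hpf in Control libraries, and at 3.19, 2.09 and 2.35 and 11.2, 11.7 and 12.1 CPM in TALE KD libraries. It was the only member called higher in Control embryos (log2 change 1.94 ± 0.15 SE, edgeR adjusted p = 3.00e-06), and it was also called higher in TALE KD embryos (2.16). hnrnph1 was called higher in TALE KD embryos (1.13) but stayed under the fold threshold in Control embryos (0.41, adjusted p = 0.00974). The related hnrnph1l, chosen after its values were seen, went the other way in Control embryos (-0.61). It held 915, 999.5 and 938 CPM at 6hpf and 640.01, 643 and 643 CPM at 12hpf there, so that the H genes did not move as a group.

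Of the 16 SR genes, 13 were called lower in Control and 11 in TALE KD embryos. srsf3b, a copy of the gene for the smallest SR protein, fell most in Control embryos. It was at 876, 811 and 724 CPM at 6hpf and 178, 172 and 252 CPM at 12hpf, a log2 change of -2.04 ± 0.15 (SE, edgeR adjusted p = 1.74e-06), with replicate 3 above the other Control libraries of 12hpf. srsf1a, whose human counterpart is the founding SR protein, was at 1287, 1376 and 1421 CPM and then at 684, 663 and 614 CPM (-1.10). The SR genes not called lower in Control embryos were srsf10b, srsf5b and srsf7b, which are named after their values were seen. srsf5b was at 214, 196 and 196 CPM at 6hpf and 229, 223 and 205 CPM at 12hpf (log2 change 0.07, adjusted p = 0.363), and the stages overlapped. Its near copy srsf5a, by contrast, was called lower (-1.04). srsf7b held no more than 1.39 CPM in any library, too few reads to follow.

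The snRNP core genes were read by their place in the particle, a grouping made after the values were seen. The 4 that encode proteins of particular snRNPs all fell. snrpa, the U1 protein that binds a loop of the U1 RNA, was at 941, 879.6 and 912 CPM at 6hpf and 156, 165 and 158 CPM at 12hpf in Control libraries (log2 change -2.55 ± 0.06 SE, edgeR adjusted p = 4.73e-09). In TALE KD libraries its log2 change was -2.73. snrpc, also of U1, fell by 1.94 on the log2 scale, and snrpb2 and snrpa1, of U2, by 1.54 and 0.92. The genes of the Sm ring, the protein ring shared by the spliceosomal snRNPs, did not move together. snrpd3 was at 381, 319.5 and 355 CPM at 6hpf and 64.8, 70.0 and 71.7 CPM at 12hpf in Control libraries (log2 change -2.40, adjusted p = 2.86e-08), and its near copy snrpd3l and snrpb were also called lower (-1.20 and -0.89). snrpd1 was lower but under 1.5-fold (-0.53). snrpd2 was at 329, 276 and 296 CPM and 296, 304 and 302 CPM, overlapping between stages, and its sign turned with library totals.

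The other 3 ring genes were higher at 12hpf without reaching the fold threshold. snrpe was at 172, 152 and 153 CPM at 6hpf and 197, 209 and 202 CPM at 12hpf in Control libraries (log2 change 0.31, edgeR adjusted p = 0.00368). snrpf was at 101, 90.4 and 95.7 CPM and 131, 147 and 130.04 CPM (0.46, adjusted p = 5.06e-04), and snrpg at 144, 131 and 137 CPM and 171, 182 and 187 CPM (0.35, adjusted p = 0.00161). Each of the 3 passed the adjusted p in TALE KD embryos as well, with log2 changes of 0.38, 0.37 and 0.32, and the stages did not overlap in either group. Such rises were common: 4157 of all 11364 genes tested in Control embryos and 4100 of 11523 in TALE KD embryos were higher by the adjusted p. The later libraries lay wholly above the earlier ones for 5054 and 4998 genes. In the human protein ring the products of these 3 genes sit side by side, so that the ring genes that rose and those that fell make parts of 1 particle.

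In the SF3a and SF3b family 7 of 8 genes were called lower in Control embryos, from sf3a3 (-1.49) to sf3a1 (-0.62), and in TALE KD embryos 6 of 8. The exception in Control embryos was sf3b3, which encodes a large scaffold protein of SF3b. Its Control levels were 529, 782 and 810.05 CPM at 6hpf and 535, 509.9 and 515 CPM at 12hpf, with replicate 1 of 6hpf down among the later libraries. It was called lower without that library (log2 change -0.64, edgeR adjusted p = 1.34e-05) and not with it (-0.49, adjusted p = 0.011). Both genes for the large U2AF subunit, which binds the pyrimidine tract, were called lower, u2af2a by 0.95 and u2af2b by 0.82 on the log2 scale. u2af1, for the small subunit that reads the last bases of the intron, was at 495, 440.4 and 493 CPM and then at 350.3, 355 and 323 CPM (-0.52), lower but under 1.5-fold.

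The PRPF factors were called lower for 9 of 12 genes in Control embryos and 7 of 12 in TALE KD embryos. prpf31, of the U4/U6 particle, fell by 1.76 on the log2 scale in Control embryos, from 369.9, 341 and 376 CPM to 106, 106 and 119.9 CPM. prpf8, the protein at the heart of the catalytic core, was at 899.6, 1449 and 1636 CPM at 6hpf and 832, 811 and 843 CPM at 12hpf in Control libraries. Control replicate 1 of 6hpf, where sf3b3 was low as well, set the spread of prpf8. The call of prpf8 (log2 change -0.72, edgeR adjusted p = 0.00511) was lost without any 1 of the other Control libraries (adjusted p from 0.0158 to 0.0212) or with library totals (0.0316). Among the genes not called lower, named after their values were seen, were prpf39, whose yeast counterpart belongs to the U1 snRNP, and prpf38b. prpf39 was at 367, 414 and 425 CPM at 6hpf and 437, 393 and 430.04 CPM at 12hpf in Control libraries. Its log2 change was 0.02 ± 0.08 (SE), and that of prpf38b was -0.02, with the sign of prpf38b turned to higher under library totals.

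**Figure D2:**
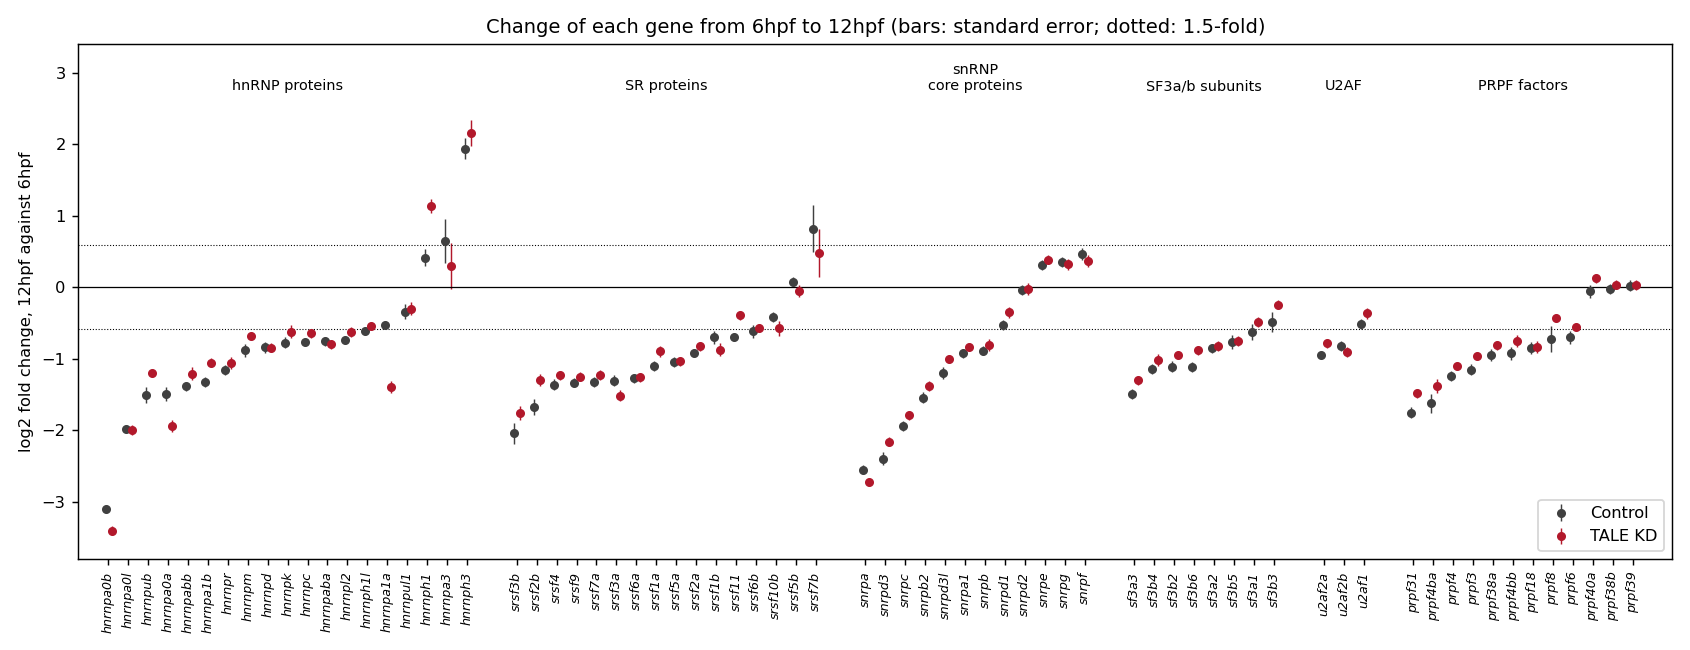
Change from 6hpf to 12hpf of each of the 70 genes (log2 change, y axis) by family on the x axis, in Control (gray) and TALE KD embryos (red), with bars for the standard error and dotted lines at 1.5-fold. Most points lie below 0 in both groups, with 9 genes above it in Control and 10 in TALE KD embryos. Those above it in both include hnrnph3, hnrnph1, snrpe, snrpf and snrpg, and from few counts hnrnpa3 and srsf7b. hnrnpa1a stands out by the distance between its Control (-0.53) and TALE KD (-1.39) points.

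Lists of further splicing genes were read beside the members and the 26.5% of all genes called lower and 32.3% called higher. Of 47 other spliceosome genes, 30 were called lower and 1, lsm4, higher at 12hpf in Control embryos, with a median log2 change of -0.78. Among 36 tested regulators outside the families, such as rbfox, ptbp and celf genes, 19 were called lower and 7 higher. The largest rise was that of rbfox1l, a regulator of muscle exons, from a mean of 0.124 CPM, only a few counts, to 13.3 CPM. Of 11 genes of the exon junction complex and mRNA export, 9 were called lower, the most acin1b (-2.08). Of the 9 genes that assemble the Sm ring, gemin2 and strap were called lower and gemin8 higher, with a median of 0.20 against 0.07 over all genes. Of 5 SR protein kinases, which phosphorylate SR proteins, srpk1a and clk4b were called lower and srpk1b and clk2a higher.

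At 6hpf the knockdown was compared with Control to ask whether any splicing gene had changed by gastrulation. None of the 70 genes was called by edgeR or by DESeq2, against 0.0392% of all genes tested with edgeR. With edgeR 3 had an unadjusted p under 0.05, as did 577 of the 10202 genes tested. The median log2 change was -0.01, against 0.01 over all genes. The members with the smallest p were hnrnpd, which in human cells promotes decay of AU-rich mRNAs, and hnrnpa1a among those lower, and the SR genes srsf6b and srsf2b among those higher. hnrnpd was at 243, 244 and 217 CPM in Control against 200.1, 197 and 204 CPM in TALE KD libraries, which did not overlap (log2 change -0.22, edgeR adjusted p = 0.699). srsf6b was at 467, 530.4 and 565 CPM and 599, 574 and 614 CPM (0.20, adjusted p = 0.814), and srsf2b at 157, 179.8 and 175 CPM and 176, 207 and 197 CPM (0.19, adjusted p = 0.898). None of these passed the threshold, also with the replicate number as a block, where 5 members had an unadjusted p under 0.05.

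At 12hpf 1 splicing gene was called lower and 1 higher. Over all genes tested 1.26% were called lower and 0.292% higher. The gene called lower was hnrnpa1a and the gene called higher was hnrnph1. By the adjusted p alone, 3 members were lower and 4 higher, where 2.09% of all genes were lower and 0.928% higher. The lower ones were hnrnpa1a, hnrnpa0a and hnrnpa0b and the higher ones hnrnph1, hnrnpa1b, hnrnpub and srsf11, and 6 of these 7 are hnRNP genes. The last pair was named after the values were seen. With the replicate number as a block the passing members were no longer mostly hnRNP genes. There the SR genes srsf1a, srsf1b, srsf2b, srsf3a, srsf3b, srsf5b and srsf6b passed as well, as did hnrnpd and members of the other families. The count of 7 is not stable. It was 22 with the replicate number as a block, which left the 2 calls in place, and 18 with DESeq2. Leaving out Control replicate 1 or 2 or TALE KD replicate 1 or 2 reduced it to 1, hnrnpa1a. It was 5 when Control replicate 3 was left out, 15 when TALE KD replicate 3 was, and 36 when both were. Calls over all genes, which also need 1.5-fold, moved with the setting too. They were 34 higher and 147 lower in the main fit, 91 and 385 with the block and 63 and 263 with DESeq2. Without Control replicate 2 they were 5 and 15, without TALE KD replicate 1 they were 9 and 38, and without replicate 3 of both groups 150 and 579.

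Small shifts upward were common among the rest. At 12hpf 45 of the 70 log2 changes were above 0, where 49.3% of all genes were, and their median was 0.05 against -0.0033 over all genes. The TALE KD libraries lay wholly above the Control libraries for 23 members and wholly below them for 10, where each direction held 16.3% of all genes. An unadjusted p under 0.05 was reached by 30 members, as by 3158 of the 11640 genes tested. The log2 change was above 0 for 11 of 12 PRPF factors and 6 of 8 SF3a and SF3b subunits, with medians of 0.08 and 0.13. It was above 0 for 11 of 19 hnRNP, 8 of 12 snRNP core and 2 of 3 U2AF genes. The SR genes were split, with 7 above 0, 9 below 0 and a median of -0.0064, although their summed level was 1.08 times as high in TALE KD libraries. Their log2 changes ran from -0.25 to 0.55, the highest being that of srsf2b, named here after its values were seen. The summed level of the SF3a and SF3b subunits was 1892, 1827 and 1825 CPM in Control against 2127, 2157 and 2011 CPM in TALE KD libraries of 12hpf. That of the PRPF factors was 2538, 2458 and 2537 CPM and 2723, 2854 and 2761 CPM, and neither pair of groups overlapped. Single members of these families stayed small, with log2 changes up to 0.28 among the SF3a and SF3b subunits and 0.31 among the PRPF factors. sf3b3 was at 535, 509.9 and 515 CPM in Control against 630.1, 657 and 608 CPM in TALE KD libraries. Its log2 change was 0.27 (edgeR adjusted p = 0.0104), and that of prpf8 was 0.25 (adjusted p = 0.0153). Blocked by replicate number, both passed (adjusted p = 8.43e-04 and 0.00186).

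Markers of stage moved in the same comparison. All 7 tested genes of the 6hpf stage list lay higher in TALE KD than in Control libraries of 12hpf without overlap, with a median log2 change of 0.50 and 1 past the adjusted p. Their list summed to 311 to 341 CPM in Control against 366 to 420.4 CPM in TALE KD libraries. Of the 10 genes of the 12hpf stage 9 were below 0 and 3 called lower, and the list summed to 520.2 to 544 CPM and 370.2 to 422 CPM. The list holds egr2b, a hindbrain gene with a log2 change of -5.77. The list also holds the gene called lower at 12hpf than at 6hpf in Control embryos (log2 change -3.23). For both reasons the sum of the list and the count below 0 do not read stage alone. Whether other genes of the list depend on TALE factors directly was not tested. The 8 genes of the p53 response, which morpholino injection can raise, were all above 0, 7 of them without overlap and bbc3 called, with a median of 0.98 and summed levels of 974 to 1356 CPM and 1452 to 1832 CPM. None of the 4 enveloping layer genes was called. The part of stage and of the p53 response in the shifts of the splicing genes was not tested.

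hnrnph1, the gene called higher, is low in these embryos. It was at 17.9, 20.2 and 18.3 CPM in Control against 29.7, 30.4 and 27.1 CPM in TALE KD libraries of 12hpf. The groups did not overlap, with a log2 change of 0.62 ± 0.08 (SE, edgeR adjusted p = 0.00365). At 6hpf its level was 15.8, 12.8 and 12.6 CPM and 12.4, 12.4 and 14.1 CPM, with overlap. The call was lost without Control replicate 1 or 2 or TALE KD replicate 1 or 2, with adjusted p from 0.0186 to 0.0269. The near copy hnrnph1l was at 640.01, 643 and 643 CPM and 669, 675 and 657 CPM (0.05), and both genes carried decimal counts, hnrnph1 in all 12 libraries and hnrnph1l in 11.

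**Figure D3:**
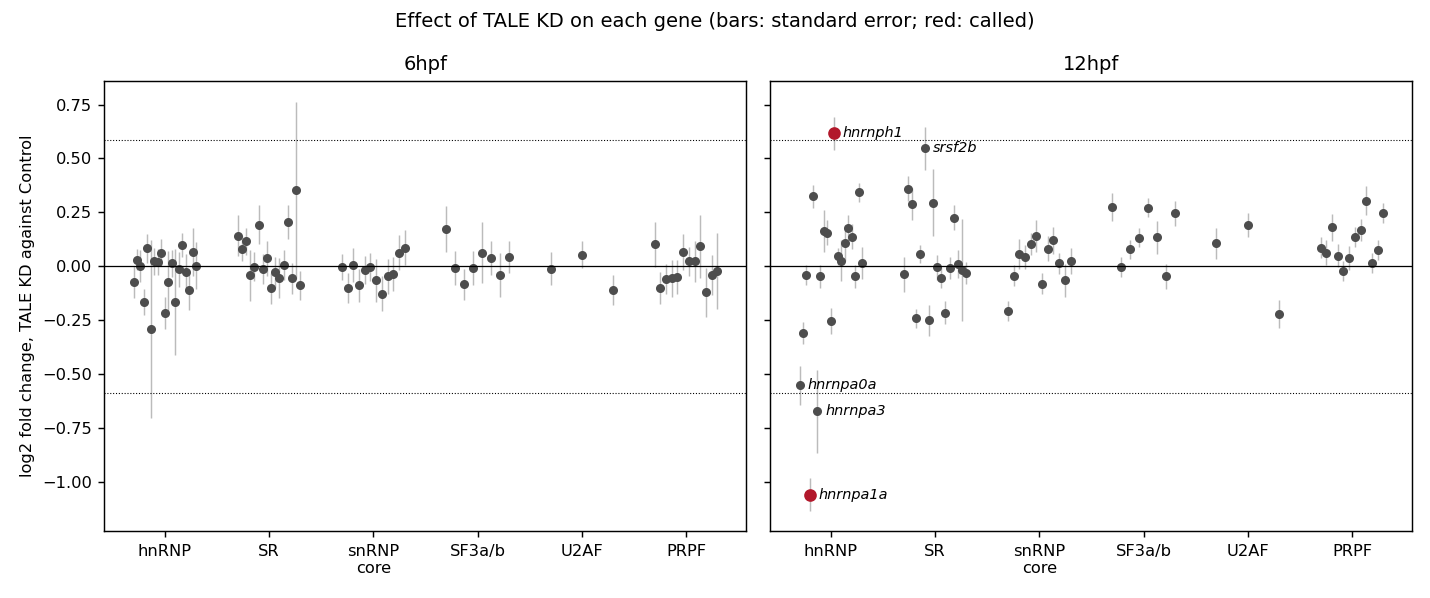
Effect of TALE KD on each of the 70 genes (log2 change, y axis) by family on the x axis at 6hpf (left) and 12hpf (right), with bars for the standard error, dotted lines at 1.5-fold and called genes in red. No gene is called at 6hpf, and at 12hpf hnrnpa1a (-1.06) and hnrnph1 (0.62) lie beyond the lines, as does hnrnpa3, whose counts were low and whose adjusted p was 0.0639.

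hnrnpa1a, whose human counterpart is an abundant shuttling hnRNP that counters SR proteins at splice sites, had the largest change of the 70 genes at 12hpf. Its 12hpf levels were 944, 972 and 892 CPM in the Control libraries and 417, 433 and 506 CPM in the TALE KD libraries. The groups were well apart, with a log2 change of -1.06 ± 0.08 (SE, edgeR adjusted p = 4.59e-04), and the call held with any 1 library left out (adjusted p from 2.17e-05 to 0.00652). At 6hpf its level was 1274, 1323 and 1339 CPM in Control against 1177, 1109 and 1200.3 CPM in TALE KD libraries. There the groups did not overlap either, but the difference was small (-0.16 ± 0.06 SE) and not called (adjusted p = 0.734). From 6hpf to 12hpf hnrnpa1a changed by -0.53 in Control and -1.39 in TALE KD embryos on the log2 scale.

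Its nearest relative, hnrnpa1b, went the other way at 12hpf. Its levels were 1374, 1496 and 1396 CPM in Control against 1853, 1820.4 and 1701 CPM in TALE KD libraries, again without overlap (log2 change 0.32 ± 0.05 SE, edgeR adjusted p = 0.00927). At 6hpf its level was 3552, 3209 and 3639 CPM and 3713, 3436 and 3790.3 CPM, with overlap (0.08). hnrnpa1a made up 40.7, 39.4 and 39.0% of the counts of the pair in the Control libraries of 12hpf and 18.4, 19.2 and 22.9% in the TALE KD libraries. At 6hpf the shares were 26.4, 29.2 and 26.9% and 24.1, 24.4 and 24.1%. These are shares of counts not corrected for transcript length, so they are read between groups and not between the genes. The exact permutation test of the share gave p = 0.1 (two-sided) at each stage, the smallest that 3 libraries against 3 allow, or 0.11 at 12hpf and 0.367 at 6hpf after adjustment over 11 pairs.

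The sum of the pair differed little between groups. Added together, hnrnpa1a and hnrnpa1b held 2318, 2468 and 2288 CPM in the Control libraries of 12hpf and 2270.2, 2253 and 2207 CPM in the TALE KD libraries, which lay just below without overlap. Fitted as 1 gene, an alternative chosen after seeing the data, the sum had a log2 change of -0.08 ± 0.04 at 12hpf (SE, edgeR adjusted p = 0.294). At 6hpf that of the sum was 0.02 (adjusted p = 0.998). Over the stages it fell by 1.06 on the log2 scale in Control and by 1.13 in TALE KD embryos. Neither gene had a whole-number count in any of the 12 libraries, so RSEM had divided reads between transcripts for both. Such decimals were not particular to this pair. They were found in every library for 21 of the 70 members, and only 1 member was whole in all libraries. How far the division of reads moves the values of hnrnpa1a and hnrnpa1b apart was not tested here, since the reads were not used.

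The other hnrnpa genes were lower or little changed. hnrnpa0a was at 414, 429 and 337 CPM in Control against 253, 271 and 286 CPM in TALE KD libraries of 12hpf, with Control replicate 3 nearest to the TALE KD libraries (log2 change -0.55 ± 0.09 SE, edgeR adjusted p = 0.00927). It stayed just under 1.5-fold and was called without Control replicate 3 (-0.65) or TALE KD replicate 3 (-0.59). hnrnpa0b was at 779, 744 and 712 CPM and 585, 594 and 634 CPM (-0.31, adjusted p = 0.00952). The third hnrnpa0 gene, hnrnpa0l, did not follow, at 1802, 1745 and 1856 CPM and 1831, 1740.1 and 1712 CPM with overlap (-0.04). hnrnpaba and hnrnpabb, whose mammalian relative binds RNA and single-stranded DNA, had log2 changes of -0.05 and 0.16 with overlapping groups. hnrnpa3 was at 2.53, 3.26 and 2.81 CPM and 1.81, 2.06 and 1.55 CPM, without overlap but from few reads (-0.67, adjusted p = 0.0639), and its counts were whole in all 12 libraries. At 6hpf the log2 changes of these 6 genes lay from -0.29 to 0.03, each with overlapping groups.

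**Figure D4:**
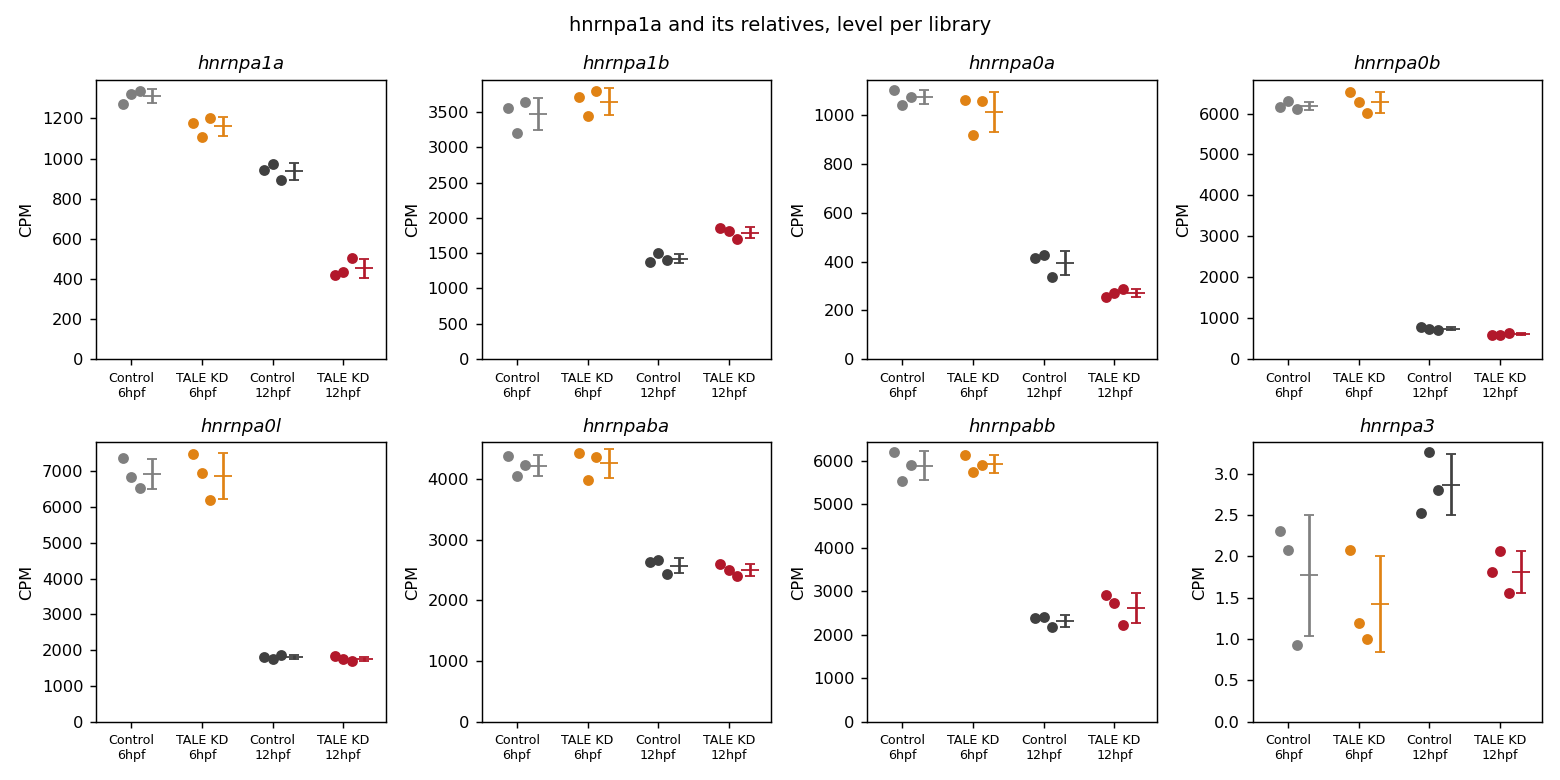
Level of each hnrnpa gene (CPM, y axis from 0, its own scale in each panel) by group on the x axis, with points for the 3 libraries and crosses with bars for their mean and SD. TALE KD points of hnrnpa1a sit under the Control points at 12hpf while those of hnrnpa1b sit above, and hnrnpa0b shows the large fall from 6hpf to 12hpf in both groups.

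Whether the knockdown acted differently at the 2 stages was tested as an interaction over the 12 libraries. hnrnpa1a was the only gene of the 70 called, with an effect 0.88 lower at 12hpf than at 6hpf on the log2 scale (difference -0.88 ± 0.10 SE, edgeR adjusted p = 0.00212), where 0.0175% of all genes were called in that direction. The call was lost, with adjusted p from 0.0102 to 0.0152, without Control 6hpf replicate 2, Control 12hpf replicate 1 or 2 or TALE KD 12hpf replicate 2, while the difference stayed between -0.97 and -0.82 with any library left out. For hnrnpa1b the difference was 0.26 (adjusted p = 0.418) and for the 2 genes added together -0.08 (adjusted p = 0.819). No member was called in the other direction by edgeR. Among members with a positive difference, hnrnph1 (0.71, adjusted p = 0.109) and srsf11 (0.29, adjusted p = 0.254) had the smallest p. An unadjusted p under 0.05 was reached by 11 members, and by 993 of the 11450 genes tested. DESeq2 called hnrnph1 higher as well.

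hnrnpa1a was also compared with the other genes named as a and b copies. Such names often mark copies from the doubling of the fish genome, but the origin of these pairs was not checked. The 70 genes hold 11 such pairs by name, chosen with their values known. At 12hpf the share of the first copy did not overlap between groups in 10 of the 11 pairs, where 34.8% of 1081 pairs named alike among all genes did not overlap, and the copies had log2 changes of opposite sign in 7, where 45.1% of all pairs did. At 6hpf the counts were 3 and 8, where 13% and 46.8% of 831 pairs did. The pairs among all genes needed only a mean of 10 counts in each gene and were not matched to the 11 for level. The share of hnrnpa1a fell by 19.5 percentage points, the furthest of the 11, and 1.76% of all pairs moved as far or further at 12hpf. The next were srsf3a, from 54.1, 54.6 and 47.9% of the counts of srsf3a and srsf3b in Control to 44.6, 42.4 and 40.8% in TALE KD libraries, and u2af2a, from 39.2, 39.5 and 37.9% to 48.2, 47.7 and 41.7% of its pair. srsf1a took 80.2, 80.1 and 78.1% of its pair in Control and 85.1, 85.9 and 83.4% in TALE KD libraries. No pair could pass an exact test with 3 libraries a group, and the smallest p of 0.1, or 0.11 adjusted over the 11 pairs, was reached by the 10 that did not overlap.

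**Figure D5:**
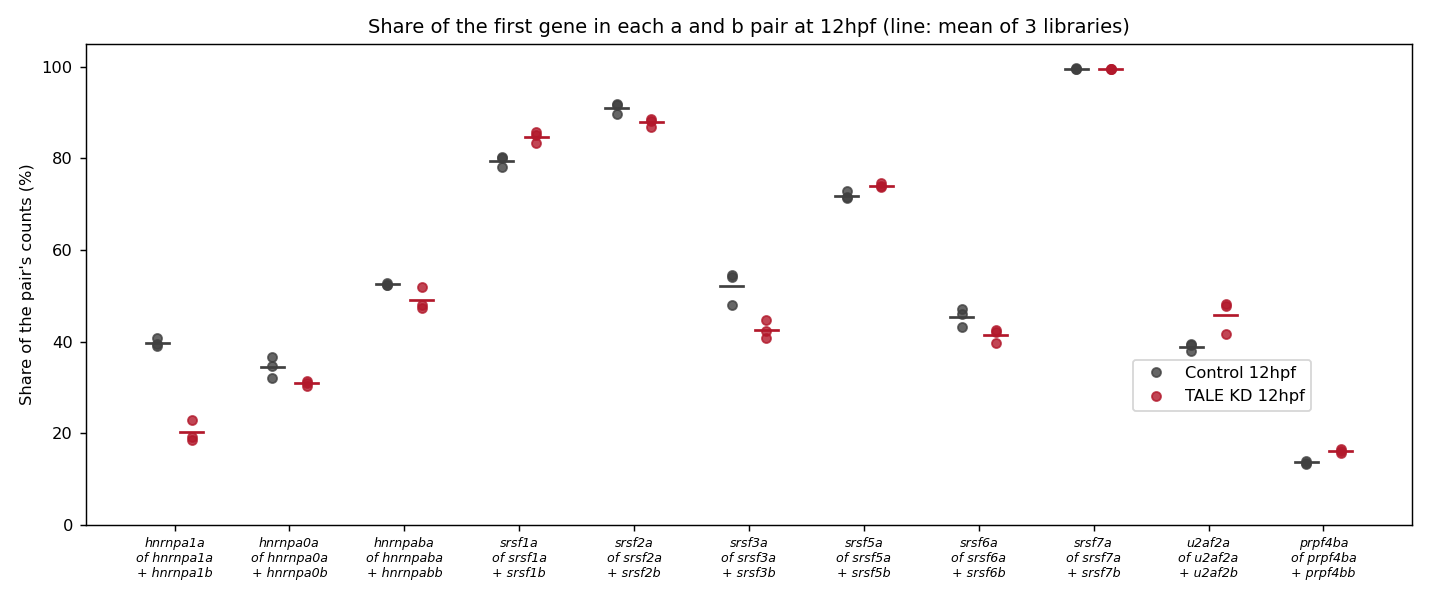
Share of the first gene in the counts of each a and b pair (%, y axis) at 12hpf, by pair on the x axis, with points for libraries and lines for the mean of 3. Control (gray) and TALE KD points (red) are furthest apart for hnrnpa1a, at a mean of 39.7% and 20.2%, and meet for srsf7a.

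Both hnrnpa1 copies lie beside hox genes in the zebrafish assembly GRCz12tu, which is not the assembly of the deposited tables and was used for gene order only. Among the 5 genes on each side of hnrnpa1a were hoxc12b, hoxc11b and hoxc6b, and among those of hnrnpa1b were hoxc6a, hoxc5a, hoxc4a, hoxc1a and cbx5. Of the neighbors of hnrnpa1a only hoxc6b was tested at 12hpf, with a log2 change of 0.26 (edgeR adjusted p = 0.155). All 10 neighbors of hnrnpa1b were tested and none was called by edgeR, the smallest adjusted p being 0.0306 for hoxc1a (-0.78). The neighbors were chosen after the values of hnrnpa1a were seen.

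The effect of the knockdown at 12hpf was also read in the other lists of splicing genes, beside the 1.26% of all genes called lower, 0.292% called higher and 49.3% above 0. Of the 47 other spliceosome genes 1 was called lower, snrnp27, a protein of the particle that also carries the PRPF factors, with a log2 change of -1.59 (edgeR adjusted p = 5.35e-04). In this list 40 genes were above 0, with a median of 0.09. Of 37 tested regulators 2 were called lower, ptbp2b (-0.98), a relative of the polypyrimidine tract binding proteins, and rbfox1l (-0.83). In the exon junction complex and export list upf3b, a factor of nonsense-mediated decay, was called higher (0.77). No gene was called among the SR protein kinases or the genes for Sm ring assembly. At 6hpf no gene of these 5 lists was called by edgeR.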

How the data were processed

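RNA-seq libraries were made with a stranded polyA kit from pools of whole embryos, 3 per group in 4 groups. The authors mapped trimmed reads to the DanRer10 transcriptome and used RSEM 1.2.28 for quantification. The deposited values are estimated counts per gene, although the tables are named for TPM: library totals differ, and 75.4% to 80.0% of values are whole numbers. No sample column was left unused. The study left out 1 unnamed library of 12hpf, whereas all 12 libraries were kept here.

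The counts were rounded. Genes averaging 10 counts or more in the libraries compared were tested with edgeR 4.0.16 (glmQLFTest, R 4.3.3) after TMM scaling, with Benjamini-Hochberg adjustment over all of them, and all 70 members passed this minimum in every comparison. Calls used the thresholds of the study (adjusted p up to 0.01, 1.5-fold or more). The SE of each log2 change was worked back from the edgeR test, as its size divided by the square root of the F statistic. TMM factors over the 12 libraries were 0.912 to 0.944 (6hpf) and 1.058 to 1.102 (12hpf). Alternatives were DESeq2 1.42.0, library totals, no minimum, a replicate block, and each library left out in turn. The procedure was tested on simulated counts. The members and lists were chosen with earlier results of these data known. Named genes are all hnrnpa genes, the highest member of each family, the 5 largest called changes in each direction, the 2 smallest p where none was called, members called in the interaction and the largest called change of each list, and other names were chosen after their values were seen.

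The replicate numbers pair Control and TALE KD libraries within a stage: deviations from the group means correlated with r of 0.42, 0.32 and 0.47 at 6hpf and 0.28, 0.31 and 0.54 at 12hpf. At 12hpf replicates 1 and 2 correlated nearly as well across numbers (0.25 and 0.23), so there the numbers mainly set replicate 3 apart, whereas at 6hpf every unmatched pair was below 0. Unmatched values below 0 are partly set by the method, since deviations from a group mean sum to 0. No pair of libraries was alike within sampling noise (chi-square per degree of freedom 2.68 to 24.6). The labels call the samples biological replicates. No sequences or coordinates are given, since no genome of the build of the tables was used here.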

Additional observations from a re-analysis of the deposited data

Results flagged for a closer look

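The effect of TALE KD on hnrnpa1a differed between the stages, with a log2 fold change of -0.16 at 6hpf and -1.06 at 12hpf and a tested difference of -0.88 (adjusted p = 0.00212, edgeR, all 3 TALE KD libraries below all 3 Control libraries at each stage). Groups of 3 were not tested for outlying single values.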

How the results depend on the processing

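Over the alternatives run, hnrnpa1a kept its direction in every comparison and its call at 12hpf. With the replicate number as a block 22 members in place of 7 passed the adjusted p at 12hpf, and the calls of 1 lower and 1 higher did not change, nor did the block change any other call among the named members. The members called at 12hpf ranged from 0 to 2 higher and from 1 to 2 lower with single libraries left out, and were 2 and 2 without replicate 3 of both groups. The interaction called 0 to 1 lower with single libraries left out, and 1 higher with DESeq2. With library totals 4 members were called higher over the stages in Control and 4 in TALE KD embryos, and the family ratios of 12hpf to 6hpf in Control libraries were 0.454 (hnRNP), 0.570 (SR), 0.585 (snRNP core), 0.627 (SF3a and SF3b), 0.723 (U2AF) and 0.734 (PRPF), since TMM factors differ between the stages. Without the hnrnpa0 genes, chosen after seeing the data, the hnRNP ratio was 0.505. The sign of hnrnpa0l turned near 0, at 6hpf with library totals (-0.0034) and without single libraries (from -0.055 to 0.069). It also turned at 12hpf without replicate 3 of both groups (0.0085) and in the interaction (from -0.11 to 0.032). Those of hnrnpaba (from -0.0061 to 0.069) and hnrnpabb (from -0.021 to 0.063) turned near 0 at 6hpf. That of hnrnpa3 turned in the interaction (from -0.61 to 0.016), where its value of -0.36 ± 0.46 (SE) was smaller than its SE. The cause of these changes was not tested. Depth limits hnrnpa3, hnrnph3 and srsf7b most, the members with the fewest counts.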
